A study of Mus musculus with 11 samples.

Results

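The comparison described here set 4 arrays of NSC34 cells carrying a short hairpin RNA against Tardbp (shTardbp 1 to 4) against 4 arrays of NSC34 cells carrying a control hairpin against GFP (shGFP 1, 2, 3 and 5), which are 8 of the 11 arrays of the series. The arrays were chosen by their sample titles, and every one of the 15803 genes with a named probe set was described. The other 3 arrays, of cells with a second control hairpin against Renilla luciferase (shLuciferase 1, 2 and 4), were used only to tell which changes are particular to the shGFP control. NSC34 is a mouse line made by fusing neuroblastoma cells with spinal cord cells, and it keeps some features of motor neurons. All 3 groups carried a pSUPERIOR hairpin vector and had passed through puromycin selection, after which stable clones were taken, so no untransfected cells enter any comparison. Nothing in the labels tells if same-group arrays are separate clones, separate cultures or repeats, so each p-value here reflects only array-to-array spread, some or all of it possibly technical.

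Tardbp encodes TDP-43, a nuclear RNA-binding protein that controls splicing and RNA stability and that is lost from the nuclei of motor neurons in amyotrophic lateral sclerosis. Cells that divide switch on their replication genes through E2F factors and their mitotic genes through MuvB complexes with B-Myb and FoxM1. In the integrated stress response, phosphorylation of the translation factor eIF2 favours production of the transcription factor ATF4, which raises genes of amino acid supply and of the CHOP and TRIB3 branch. Genes of both systems were followed here by name.

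The hairpin was designed against a single stretch of Tardbp, shown here as the labels give it because it is the agent that separates the groups.
Tardbp hairpin target: tctaagcaaagccccagacgagcct
The Tardbp gene value was at 9.25, 9.08, 9.36 and 9.41 in shGFP 1, 2, 3 and 5 and at 8.82, 8.80, 8.997 and 8.91 in shTardbp 1 to 4. All 4 shTardbp values lay below all 4 shGFP values. The drop was modest, to 76.1% of the shGFP signal (95% confidence interval 67.4 to 85.9; log2 change -0.39, SE 0.0812, adjusted p = 0.00212, limma). The exact two-sided permutation test of 4 against 4 arrays gave p = 0.0286, as small as the 70 possible splits can give. All 10 Tardbp probe sets had a lower mean in shTardbp, by log2 differences from -0.62 to -0.21, and 3 of them did not overlap between the groups. The shLuciferase arrays were at 9.29, 9.38 and 9.20, and the controls did not pass the test between them (shGFP minus shLuciferase -0.01, adjusted p = 0.967).

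A gene value is the mean log2 signal of all probe sets with that gene symbol alone, so a log2 difference of 1 is a doubling of signal. Array medians ran from 6.85 to 6.92 in the 8 arrays. In a principal component analysis of the 8 arrays, the first component held 61.6% of the variance, with shGFP at -21.7 to -18.5 and shTardbp at 18.3 to 20.8, and the second held 10.7%, with shGFP 1 at its end (15.9). The labels also give each array a code that opens with P for all 4 shTardbp arrays and for shLuciferase 4, and with C for the others. What the letters stand for is not given, and within the 8 arrays letter and hairpin cannot be told apart. The only handle on the letter is shLuciferase 4, so its values are given beside the main gene groups. With the letter as a block over all 11 arrays, the Tardbp change was -0.26 (SE 0.158) and its call was lost (adjusted p = 0.321).

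Markers of the cell type were partly present. Of 13 measured motor neuron markers, 3 (Chat, Slc5a7 and Mnx1) were low in both groups, meaning that their group mean was below the lowest 25th percentile of probe set signals on any array, which does not show them above background. Of the others, named after their values were seen, Prph, Ret, Slc18a3 and Isl1 were well above that level, and of 20 pan-neuronal markers only Dcx was low. Markers of glia and Schwann cells (15 measured, 6 of them low in both groups) gave 2 genes past the test against shGFP. Fibroblast markers (12) gave 4, and markers of muscle, epithelium, endothelium and blood (11) gave 3. The same test was passed by 27.9% of all genes, and these small counts were not tested against that share. The median of the glial list relative to the shGFP mean was -0.05 to 0.10 on the shGFP arrays and -0.05 to 0.14 on the shTardbp arrays, that of the fibroblast list -0.02 to 0.04 and -0.10 to 0.09, and that of the last list -0.05 to 0.06 and 0.01 to 0.13. Whether these cells add to any result was not tested.

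Against shGFP, 4416 of 15803 genes (27.9%) passed the threshold of 0.05 on the adjusted p (limma, Benjamini-Hochberg over all genes). Of these, 1960 (12.4%) were higher and 2456 (15.5%) lower in shTardbp. Most changes were small, with a median absolute log2 change of 0.41 among genes that passed. A change of at least 2-fold was met by 71 higher genes (0.449%) and 138 lower genes (0.873%). The 4 shTardbp and 4 shGFP values did not overlap in 4501 genes (28.5%), of which 2059 were higher (13.0%) and 2442 lower (15.5%), and 3899 genes met both criteria. At the level of single probe sets the groups were apart and higher in 9.59% and apart and lower in 10.5% of 179496. The share of genes that passed grew with signal, from 2.35% in the dimmest of 4 equal bins of mean level to 45.3% in the third and 40.1% in the brightest, and with the number of probe sets, from 8.67% of genes with 1 to 38.6% of genes with 20 or more. A gene that did not pass is therefore less informative when it is dim or has few probe sets.

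**Figure D1:**
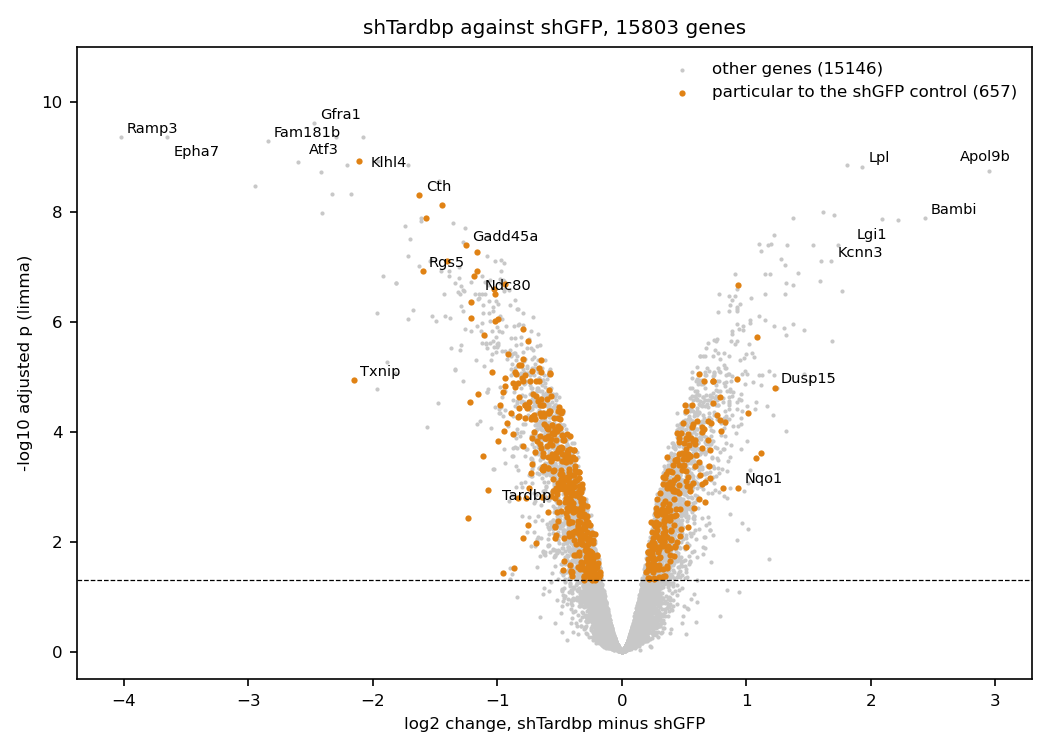
Each point is a gene, with the log2 change of shTardbp minus shGFP on the x axis and -log10 of the limma adjusted p on the y axis, the dashed line marking 0.05. Orange points are the 657 genes particular to the shGFP control, which lie among both the rises and the falls, and Tardbp itself lies among the smaller falls.

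The 12 largest falls ran from -4.02 to -2.15. Ramp3, a partner protein of the calcitonin-receptor-like receptor, was at 8.28, 8.44, 8.18 and 8.19 in shGFP 1, 2, 3 and 5 and at 4.33, 4.01, 4.42 and 4.21 in shTardbp 1 to 4, a 16.3-fold lower signal (log2 change -4.02, SE 0.132, adjusted p = 4.39e-10). Its shTardbp mean was low in the sense given above, so the size of the fall is not well determined. The shLuciferase arrays were at 4.40, 4.97 and 5.07, far below shGFP, and the change against shLuciferase was only -0.57 (adjusted p = 0.00858). Epha7, an ephrin receptor, was at 7.34, 7.46, 7.70 and 7.85 in shGFP 1, 2, 3 and 5 and at 4.07, 3.89, 3.93 and 3.87 in shTardbp 1 to 4 (log2 change -3.65, SE 0.123, adjusted p = 4.39e-10). Here the shLuciferase arrays (7.53, 7.68 and 8.07) lay with shGFP, and the change against them was -3.82, with the shTardbp mean again low. Fam181b was at 8.36, 8.62, 8.74 and 8.43 in shGFP 1, 2, 3 and 5 and at 5.62, 5.83, 5.54 and 5.78 in shTardbp 1 to 4 (log2 change -2.85, SE 0.1, adjusted p = 5.19e-10), with shLuciferase between them at 6.64 to 6.94. In all of these every shTardbp array lay below every shGFP array. The same was true of Gfra1, through which the growth factor GDNF acts on the RET receptor, which was at 8.46, 8.67, 8.62 and 8.48 in shGFP 1, 2, 3 and 5 and at 6.03, 6.21, 6.03 and 6.08 in shTardbp 1 to 4 (log2 change -2.47, SE 0.0717, adjusted p = 2.42e-10), and again shLuciferase lay between the groups at 7.57 to 7.71.

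The other 8 of the 12 largest falls ran from -2.60 for the orphan receptor Gprc5b to -2.15 for Txnip, a thioredoxin-binding protein. Gpx8, a peroxidase of the endoplasmic reticulum, fell from 6.64 to 7.15 in shGFP to 4.35 to 4.48 in shTardbp, with shLuciferase at 6.63 to 6.84, so its fall was about the same against either control (-2.41 and -2.31), and its shTardbp mean was low. The secreted proteins Fam19a1 (-2.33 and -2.63) and Lrrc17 (-2.29 and -2.13) likewise fell against both. The matrix proteoglycan genes Prelp and Dcn fell more against shGFP (-2.41 and -2.18) than against shLuciferase (-1.36 and -1.04), with the controls differing by 1.04 (adjusted p = 0.000117) and 1.14 (adjusted p = 1.43e-05). Txnip was the only one of the 12 that did not pass against shLuciferase (0.14, adjusted p = 0.777). It was at 7.38, 8.02, 7.52 and 7.97 in shGFP 1, 2, 3 and 5 and at 5.15, 6.29, 5.30 and 5.54 in shTardbp 1 to 4 (log2 change -2.15, SE 0.228, adjusted p = 1.14e-05), and the shLuciferase values of 5.53, 5.72 and 5.03 overlapped those of shTardbp.

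The largest rises were in genes of differing functions. Apol9b, an apolipoprotein L gene induced by interferon, was at 4.66, 5.24, 4.78 and 5.12 in shGFP 1, 2, 3 and 5 and at 7.65, 7.97, 7.99 and 7.96 in shTardbp 1 to 4, a 7.7-fold higher signal (log2 change 2.94, SE 0.121, adjusted p = 1.83e-09), from only 2 probe sets. The shLuciferase arrays were between the groups (6.22, 6.41 and 6.27). Bambi, a pseudoreceptor that blunts TGF-beta signalling, was at 6.28, 6.49, 6.23 and 5.98 in shGFP 1, 2, 3 and 5 and at 8.61, 8.99, 8.51 and 8.62 in shTardbp 1 to 4 (log2 change 2.43, SE 0.122, adjusted p = 1.29e-08). In both genes every shTardbp array was higher than every array of either control. Lpl, the lipoprotein lipase gene, was at 5.91, 6.16, 6.22 and 5.93 in shGFP 1, 2, 3 and 5 and at 7.99, 7.91, 8.04 and 7.996 in shTardbp 1 to 4 (log2 change 1.93, SE 0.0779, adjusted p = 1.5e-09). The shLuciferase arrays expressed Lpl almost as highly as shTardbp (7.67, 7.56 and 7.63), so the 3.81-fold rise against shGFP became 1.29-fold against shLuciferase. Cd74, the invariant chain of class II antigen presentation, was at 7.33, 7.57, 7.47 and 7.61 in shGFP 1, 2, 3 and 5 and at 9.13, 9.41, 9.17 and 9.08 in shTardbp 1 to 4 (log2 change 1.70, SE 0.0837, adjusted p = 1.12e-08), and its rise was larger against shLuciferase (2.13). Kcnn3, a calcium-activated potassium channel, was at 7.54, 7.97, 7.83 and 7.83 in shGFP 1, 2, 3 and 5 and at 9.52, 9.67, 9.47 and 9.25 in shTardbp 1 to 4 (log2 change 1.68, SE 0.103, adjusted p = 7.87e-08), with shLuciferase beside shGFP at 7.52 to 7.70.

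The remaining rises were Lgi1 (2.22), a secreted synaptic protein mutated in familial epilepsy, Dmkn (2.09), the protocadherin Mupcdh (1.80), the olfactory receptor Olfr78 (1.76), the kinesin Kifc2 (1.74), the coagulation factor gene F8 (1.69) and the PI3-kinase regulatory subunit Pik3r3 (1.66). All 24 genes kept shTardbp and shGFP apart, as the rule that named them demanded, and their highest adjusted p was 1.14e-05. Of the 24, 15 differed between the control hairpins, so for most of these genes the size of the change depended on which control was used.

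**Figure D2:**
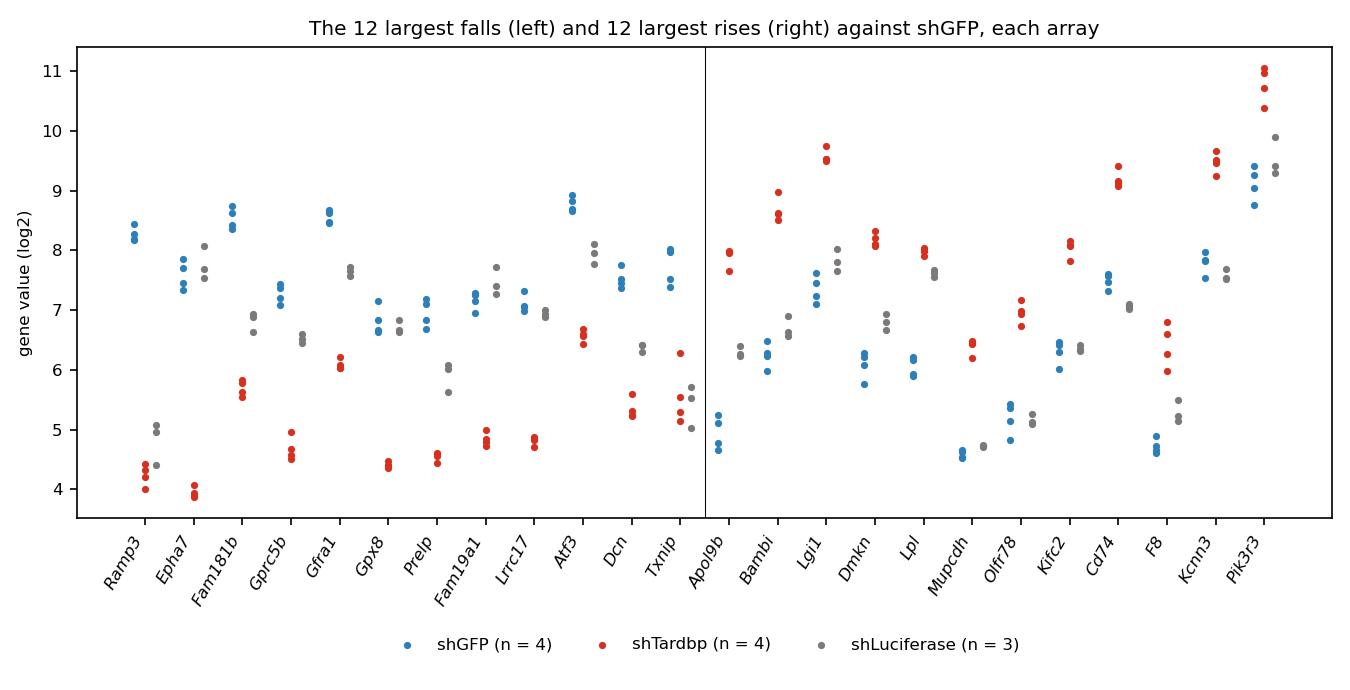
Each point is the log2 gene value of an array, for the 12 largest falls and 12 largest rises against shGFP, with shGFP in blue, shTardbp in red and shLuciferase in grey. The grey points lie with or beside the blue ones for Epha7, Gpx8, Fam19a1, Lrrc17 and Kcnn3, and near the red ones for Ramp3, Txnip and Lpl.

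The next question was which changes are particular to the shGFP control. Against shLuciferase, 4120 genes passed (26.1%), 1861 higher (11.8%) and 2259 lower (14.3%). The difference between the 2 changes of a gene equals shGFP minus shLuciferase, so the direct test of it is the test between the controls. That test passed for 1752 genes (11.1%), 990 higher (6.26%) and 762 lower (4.82%) in shGFP. A gene past the threshold against shGFP was called particular to this control when the controls differed and it either did not pass against shLuciferase or passed in the opposite direction. This held for 657 genes (4.16% of all genes, 14.9% of those past the threshold), 423 lower (2.68%) and 234 higher (1.48%). With the replicate number as a block the class held 414 genes, 376 of them in both versions. The shGFP arrays enter both tests, which couples them, so that a chance deviation of the shGFP mean raises both at once.

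A further 2307 genes (14.6% of all) were shared, passing in the same direction against both controls with no difference between controls past the threshold, and 392 (2.48%) were shared with a size that differed between the controls. The other 1060 (6.71%) were undetermined, since neither the change against shLuciferase nor the difference between controls passed. The median absolute log2 change was 0.42 for the particular genes and 0.45 for the shared ones. Among the 138 genes at least 2-fold lower, 62 were shared, 53 shared with a differing size and 23 particular. Among the 71 at least 2-fold higher the numbers were 31, 34 and 5, with 1 undetermined. In 77 genes the change passed in opposite directions against the 2 controls.

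The largest particular falls after Txnip were in genes that shGFP expressed above both other groups, as the definition of the class requires. Klhl4, a Kelch family gene, was at 5.72, 6.07, 5.87 and 5.84 in shGFP 1, 2, 3 and 5 and at 3.82, 3.87, 3.74 and 3.62 in shTardbp 1 to 4 (log2 change -2.11, SE 0.0808, adjusted p = 1.18e-09), with 12 of its 12 probe sets apart between the groups. The shLuciferase arrays were at 3.62, 3.69 and 3.74, overlapping the shTardbp values, and the means of both were low. Cth, the cystathionine gamma-lyase of cysteine synthesis, was at 10.11, 10.10, 9.92 and 10.09 in shGFP 1, 2, 3 and 5 and at 8.52, 8.45, 8.30 and 8.45 in shTardbp 1 to 4 (log2 change -1.62, SE 0.0742, adjusted p = 4.93e-09) and at 8.61, 8.72 and 8.497 in shLuciferase. Its change against shLuciferase did not pass (-0.18, adjusted p = 0.127), while the controls differed by 1.45 (adjusted p = 1.38e-07). In Klhl4 and Cth the shTardbp and shGFP values lay far apart. Rgs5, a regulator of G protein signalling, changed by -1.60 against shGFP and 0.19 against shLuciferase. Mfng, a glycosyltransferase that modifies Notch, changed by -1.57 and 0.12, the transcription factor Sox6 by -1.45 and -0.04, and the glycosyltransferase Mgat4c by -1.40 and -0.07. None of these 4 passed against shLuciferase (adjusted p from 0.255 to 0.807).

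Gadd45a, a growth arrest and DNA damage gene, turned its direction with the control. It was at 8.21, 8.42, 8.23 and 8.25 in shGFP 1, 2, 3 and 5 and at 7.11, 7.04, 6.89 and 7.07 in shTardbp 1 to 4, a fall of 2.38-fold (log2 change -1.25, SE 0.0708, adjusted p = 3.98e-08). In shLuciferase it was at 6.63, 6.57 and 6.64, below every shTardbp array, so that it rose by 0.41 against shLuciferase (adjusted p = 0.00111).

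Particular rises were smaller. Dusp15, a dual-specificity phosphatase, was at 7.04, 6.90, 6.95 and 6.68 in shGFP 1, 2, 3 and 5 and at 7.67, 8.40, 8.22 and 8.19 in shTardbp 1 to 4 (log2 change 1.23, SE 0.135, adjusted p = 1.57e-05), with shLuciferase at 7.84, 7.71 and 8.03. Nqo1, a quinone reductase and a standard target of NRF2, was at 5.17, 5.999, 5.52 and 5.13 in shGFP 1, 2, 3 and 5 and at 6.57, 6.33, 6.25 and 6.41 in shTardbp 1 to 4 (log2 change 0.93, SE 0.174, adjusted p = 0.00104) and at 6.71, 6.85 and 6.25 in shLuciferase. Il17rd, an inhibitor of FGF signalling, was at 7.63, 7.70, 7.67 and 7.57 in shGFP 1, 2, 3 and 5 and at 8.64, 8.57, 8.56 and 8.53 in shTardbp 1 to 4 (log2 change 0.93, SE 0.0637, adjusted p = 2.1e-07), with shLuciferase at 8.52, 8.52 and 8.36. In each of these the shLuciferase arrays lay near shTardbp and above shGFP, a pattern that the definition of a particular rise selects. The others were Fbxo36 (1.11 against shGFP and 0.07 against shLuciferase), Sertad4 (1.08 and 0.13), the relaxin gene Rln3 (1.08 and 0.02), the cilium gene Rsph1 (1.01 and 0.20) and the clock repressor Nr1d1 (0.93 and 0.14). Under the letter block, Fbxo36, Rln3 and Rsph1 no longer passed against shGFP.

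Cell cycle genes were lower as a group, and about equally against both controls. Of 168 measured genes, 134 fell against shGFP (79.8%, beside 15.5% of all genes) and 1 rose, with a median log2 change of -0.49 beside 0.01 for all genes. Against shLuciferase 130 fell (77.4%, beside 14.3% of all genes) and 2 rose (1.19%, beside 11.8%), with a median of -0.47. Only 2 of the 168 were particular to shGFP (1.19%, beside 4.16% of all genes), the retinoblastoma gene Rb1 (-0.26, a call lost without shGFP 3) and the DNA damage kinase Atm (0.39). Between the controls themselves 2 were higher and 6 lower in shGFP (1.19% and 3.57%, beside 6.26% and 4.82% of all genes). In the fit with the array letter as a block, 70 of the 168 fell and none rose, while 1933 of all genes passed in either direction. Array weights gave 3 rises, and leaving out shTardbp 1 gave 2.

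Of 17 cyclins, kinases and activators 10 fell against shGFP (58.8%, beside 15.5% of all genes) and none rose (beside 12.4%), with a median of -0.37. Ccne1, cyclin E1, which starts S phase with CDK2, was at 8.17, 8.37, 8.27 and 8.07 in shGFP 1, 2, 3 and 5 and at 7.03, 7.44, 7.20 and 7.18 in shTardbp 1 to 4 (log2 change -1.01, SE 0.0936, adjusted p = 3.56e-06), with shLuciferase at 8.03 to 8.26. Ccne2 (-0.73), its kinase gene Cdk2 (-0.59), the S and G2 cyclin Ccna2 (-0.56) and the mitotic kinase Cdc2a, now named Cdk1 (-0.52), fell by less. Of the D cyclins, chosen for mention after their values were seen, Ccnd1 and Ccnd2 did not pass (0.10 and 0.16) and Ccnd3 fell (-0.41). Of 7 CDK inhibitors 5 fell (71.4%, beside 15.5% of all genes) and none rose (beside 12.4%). Cdkn3, a phosphatase of CDKs that is itself expressed in mitosis, changed by -0.81 (SE 0.0705), and Cdkn2c and Cdkn2b by -0.62 and -0.41. Cdkn1a, the p53-induced inhibitor p21, was at 9.94, 9.87, 10.04 and 9.92 in shGFP 1, 2, 3 and 5 and at 9.44, 9.82, 9.62 and 9.76 in shTardbp 1 to 4 (log2 change -0.28, SE 0.0881, adjusted p = 0.0272), a small fall whose call was lost without shGFP 1, shGFP 3, shTardbp 1 or shTardbp 3. Cdkn2a, the INK4A and ARF locus, also fell (-0.25) and lost its call without shGFP 2, shTardbp 1 or shTardbp 3. The inhibitor count fell to 3 without shTardbp 1 or without shTardbp 3 and to 1 with the array letter as a block.

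The list of E2F, RB and MuvB factors holds repressors of cell cycle genes as well as activators. Of its 17 measured genes, 13 fell (76.5%, beside 15.5% of all genes), with a median of -0.39. Mybl2, the B-Myb partner of MuvB, was at 9.86, 9.91, 9.90 and 9.61 in shGFP 1, 2, 3 and 5 and at 8.72, 8.90, 8.65 and 8.78 in shTardbp 1 to 4 (log2 change -1.06, SE 0.0938, adjusted p = 2.41e-06), with shLuciferase at 9.67 to 10.01. Foxm1, the mitotic forkhead factor, was at 10.27, 10.27, 10.14 and 9.98 in shGFP 1, 2, 3 and 5 and at 9.56, 9.67, 9.41 and 9.50 in shTardbp 1 to 4 (log2 change -0.63, SE 0.0808, adjusted p = 5.63e-05). The groups did not overlap in either gene. E2f7 and E2f8, repressors that are themselves E2F targets, fell by less against shGFP (-0.53 and -0.68) than against shLuciferase (-0.85 and -0.96), and the controls differed past the threshold for both. Lin9, a core subunit of MuvB, fell too (-0.63). Against shLuciferase 9 of the 17 fell (52.9%, beside 14.3% of all genes).

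Of the 47 replication and nucleotide genes, 35 fell against shGFP (74.5%, beside 15.5% of all genes) and none rose (beside 12.4%), with a median of -0.49. Against shLuciferase 36 fell (76.6%, beside 14.3% of all genes). Mcm10, which helps to open the replication fork, was at 9.56, 9.56, 9.61 and 9.60 in shGFP 1, 2, 3 and 5 and at 8.65, 8.62, 8.46 and 8.53 in shTardbp 1 to 4 (log2 change -1.01, SE 0.0618, adjusted p = 7.82e-08), and all 22 of its 22 probe sets were apart between the groups. Cdc45l, a subunit of the replicative helicase now named Cdc45, was at 8.52, 8.49, 8.46 and 8.39 in shGFP 1, 2, 3 and 5 and at 7.53, 7.68, 7.55 and 7.47 in shTardbp 1 to 4 (log2 change -0.90, SE 0.0633, adjusted p = 2.63e-07). Both were lower in every shTardbp array than in every control array of either kind. The primase subunit Prim2 (-0.71), the origin recognition subunit Orc2l (-0.66) and the helicase subunit Mcm3 (-0.79) followed.

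Mitosis and cytokinesis genes gave the most even picture. Of 62, 56 fell (90.3%, beside 15.5% of all genes), all 62 had a negative change, and the median was -0.57. Ndc80, the kinetochore subunit that holds the microtubule, was at 8.52, 8.59, 8.67 and 8.68 in shGFP 1, 2, 3 and 5 and at 7.41, 7.31, 7.46 and 7.69 in shTardbp 1 to 4 (log2 change -1.15, SE 0.0825, adjusted p = 3.13e-07), with shLuciferase at 8.29 to 8.44. Hmmr, a spindle protein, was at 10.84, 10.88, 11.02 and 10.94 in shGFP 1, 2, 3 and 5 and at 9.89, 9.53, 9.96 and 9.84 in shTardbp 1 to 4 (log2 change -1.11, SE 0.087, adjusted p = 7.02e-07). In both, all shTardbp values lay below all control values of either kind. The centromere protein gene Cenpn (-0.84) and the shugoshins Sgol1 and Sgol2, which protect cohesion between sister chromatids (-0.83 and -0.79), fell by similar amounts. On single arrays the median of the list relative to the shGFP mean was -0.61, -0.61, -0.55 and -0.52 on shTardbp 1 to 4. On shLuciferase 4, which shares the letter P with them, it was -0.04, beside -0.02 and -0.01 on the other shLuciferase arrays.

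Of 18 checkpoint and fork repair genes 15 fell (83.3%, beside 15.5% of all genes) and 1, Atm, rose (5.56%, beside 12.4%). Exo1, an exonuclease of mismatch and break repair, was at 9.77, 9.80, 9.82 and 9.72 in shGFP 1, 2, 3 and 5 and at 8.47, 8.82, 8.59 and 8.52 in shTardbp 1 to 4 (log2 change -1.18, SE 0.0845, adjusted p = 3.15e-07). Chek1, the kinase that halts the cycle when forks stall, was at 9.68, 9.76, 9.75 and 9.78 in shGFP 1, 2, 3 and 5 and at 8.69, 8.89, 8.93 and 9.07 in shTardbp 1 to 4 (log2 change -0.85, SE 0.076, adjusted p = 2.62e-06). Neither gene overlapped between the groups. Bard1, the partner of BRCA1, fell by a similar amount (-1.01), and Rad51ap1 (-0.85) and Clspn (-0.60) fell as well. Atm was at 8.11, 8.12, 8.37 and 8.45 in shGFP 1, 2, 3 and 5 and at 8.68, 8.40, 8.77 and 8.76 in shTardbp 1 to 4, with overlapping groups. In this list the count of falls with the array letter as a block was 4. In the same fit it was 6 of 17 for cyclins, 18 of 47 for replication and 32 of 62 for mitosis. Of all 15803 genes, 1933 passed in that fit, counting both directions.

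Promoters of measured genes were searched whether or not the gene fell, so the shares below describe the lists and do not depend on the array changes. The first motif was the cell cycle genes homology region, the element through which MuvB complexes bind, taken as TTTGAA on either strand. The windows searched are those of RefSeq (GRCm38.p6) and span each transcript start, mostly on its upstream side. The element was in at least 1 window of 36 of 54 mitosis genes that had windows (66.7%), of 40.9% of all cell cycle genes and of 17.2% of 12609 measured genes. An E2F element, TTCCCGC or TTGGCGC on either strand, was in 57.5% of replication genes and in 11.2% of all genes. Neither motif contains the other. The windows of 3 of the 5 mitotic genes named above held the first element and are shown with it in capitals.
Ndc80, chr17:71526808-71527107, minus strand: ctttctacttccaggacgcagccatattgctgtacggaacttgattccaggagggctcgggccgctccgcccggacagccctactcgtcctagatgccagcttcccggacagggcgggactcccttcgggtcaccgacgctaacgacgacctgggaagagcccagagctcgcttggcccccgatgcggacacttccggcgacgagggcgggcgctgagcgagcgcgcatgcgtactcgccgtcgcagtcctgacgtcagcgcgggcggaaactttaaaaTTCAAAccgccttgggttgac
Cenpn, chr8:116921490-116921789, plus strand: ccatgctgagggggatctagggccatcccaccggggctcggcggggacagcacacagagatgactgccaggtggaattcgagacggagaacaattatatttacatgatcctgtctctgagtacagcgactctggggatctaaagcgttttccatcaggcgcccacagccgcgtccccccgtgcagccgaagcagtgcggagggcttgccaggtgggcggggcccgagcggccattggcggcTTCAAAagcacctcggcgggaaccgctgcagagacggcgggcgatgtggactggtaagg
Hmmr, chr11:40733388-40733687, minus strand: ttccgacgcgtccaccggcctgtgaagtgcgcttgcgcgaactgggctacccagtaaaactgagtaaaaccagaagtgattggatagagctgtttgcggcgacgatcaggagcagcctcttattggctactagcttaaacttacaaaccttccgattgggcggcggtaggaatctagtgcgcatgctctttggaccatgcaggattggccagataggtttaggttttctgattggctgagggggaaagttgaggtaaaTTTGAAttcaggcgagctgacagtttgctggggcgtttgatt
Each of the 3 windows holds the element once. A match describes the sequence and does not show that a factor binds there.

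**Figure D3:**
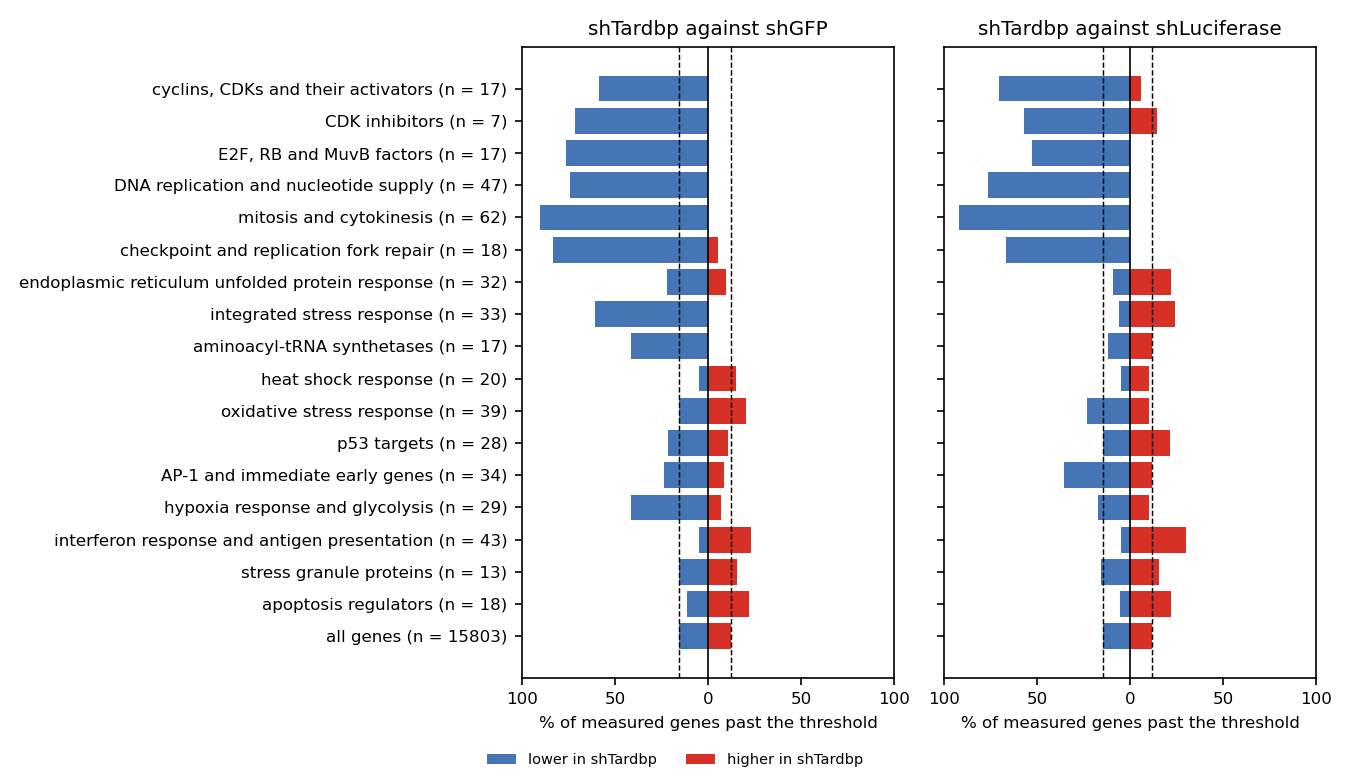
Bars give the percentage of the measured genes of each list that passed the limma threshold against shGFP (left panel) and against shLuciferase (right panel), lower genes to the left in blue and higher genes to the right in red, with dashed lines at the percentages of all genes. The 6 cell cycle lists reach 58.8 to 90.3% lower on the left and 52.9 to 91.9% on the right, while the integrated stress response list is lower on the left (60.6%) and not on the right (6.06%).

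Stress-response genes did not move as a block, and the balance of falls and rises over all of them depended on the control. Of 300 measured genes in 11 lists, 71 fell (23.7%, beside 15.5% of all genes) and 36 rose (beside 12.4%) against shGFP, with a median of -0.03. Against shLuciferase 42 fell (14.0%, beside 14.3% of all genes) and 53 rose (17.7%, beside 11.8%), with a median of 0.03. In the test between the controls 59 were higher and 14 lower in shGFP (19.7% and 4.67%, beside 6.26% and 4.82% of all genes). Of the 300, 33 were particular to shGFP, 29 lower and 4 higher. Blocking on the array letter left 23 falls and 22 rises against shGFP. The single lists differed in this. Rises outnumbered falls against both controls among interferon genes, and falls outnumbered rises against both among immediate early genes.

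The integrated stress response list differed most between the controls. Of 33 measured genes 20 fell against shGFP (60.6%, beside 15.5% of all genes) and none rose (beside 12.4%), with a median of -0.31. Against shLuciferase 2 fell (6.06%, beside 14.3%) and 8 rose (24.2%, beside 11.8%), with a median of 0.01. Between the controls 20 were higher in shGFP (60.6%, beside 6.26% of all genes) and none lower (beside 4.82%). Of the 20 that fell, 12 were particular to shGFP (36.4% of the list, beside 4.16% of all genes), 2 were shared with a differing size and 6 were undetermined. The 12 are described one by one, and all of them except Cth, Sesn2 and Cebpg were chosen for mention after their values were seen.

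Atf4, the factor at the head of the response, was at 11.04, 11.14, 10.99 and 11.03 in shGFP 1, 2, 3 and 5 and at 10.71, 10.80, 10.67 and 10.73 in shTardbp 1 to 4 (log2 change -0.32, SE 0.0638, adjusted p = 0.00164). In shLuciferase it was at 10.70, 10.86 and 10.82, within the shTardbp range or just above it, and the change there was -0.06 (adjusted p = 0.608). Ddit3, which encodes CHOP, was at 9.27, 9.27, 8.93 and 9.12 in shGFP 1, 2, 3 and 5 and at 8.91, 9.08, 8.63 and 8.77 in shTardbp 1 to 4 (log2 change -0.30, SE 0.103, adjusted p = 0.0431). The shTardbp and shGFP values of Ddit3 overlapped. The shLuciferase values (8.62, 8.57 and 8.40) lay below all shTardbp values, so Ddit3 rose by 0.32 against shLuciferase (adjusted p = 0.0489). No shLuciferase array reached the lowest shGFP value in either gene. Trib3, a pseudokinase that dampens the response, was at 9.58, 9.72, 9.43 and 9.43 in shGFP 1, 2, 3 and 5 and at 9.02, 9.09, 8.70 and 8.80 in shTardbp 1 to 4 (log2 change -0.63, SE 0.107, adjusted p = 0.000497), with shLuciferase at 8.82, 8.79 and 8.46. Cebpg, a partner of ATF4, was at 9.83, 9.63, 9.88 and 9.96 in shGFP 1, 2, 3 and 5 and at 8.82, 8.92, 9.14 and 9.25 in shTardbp 1 to 4 (log2 change -0.79, SE 0.118, adjusted p = 0.000179), with shLuciferase at 8.85, 8.94 and 9.32, and Cebpb, another partner, changed by -0.53 against shGFP and 0.01 against shLuciferase.

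The target genes of the particular class were also highest in shGFP, which the definition of a particular fall requires. Sesn2, a leucine sensor upstream of mTORC1, was at 9.75, 9.83, 9.81 and 9.62 in shGFP 1, 2, 3 and 5 and at 8.98, 8.88, 8.79 and 8.93 in shTardbp 1 to 4 (log2 change -0.86, SE 0.0942, adjusted p = 1.55e-05) and at 9.03, 9.12 and 8.66 in shLuciferase. Chac1, which degrades glutathione, was at 11.04, 11.04, 10.89 and 10.99 in shGFP 1, 2, 3 and 5 and at 10.57, 10.62, 10.50 and 10.57 in shTardbp 1 to 4 (log2 change -0.43, SE 0.0718, adjusted p = 0.000483), with shLuciferase at 10.44, 10.63 and 10.72. Nupr1, a small stress protein, was at 10.34, 10.50, 10.26 and 10.24 in shGFP 1, 2, 3 and 5 and at 10.09, 9.91, 10.002 and 10.05 in shTardbp 1 to 4 (log2 change -0.32, SE 0.0774, adjusted p = 0.00597). In shLuciferase it was at 9.60, 9.38 and 9.45, below all shTardbp arrays, and its change there was a rise (0.54, adjusted p = 0.000298). The serine and folate genes Psph (-0.35 and 0.16 against the 2 controls) and Mthfd2 (-0.44 and -0.10) and the proline gene Aldh18a1 (-0.35 and 0.18) completed the particular set together with Cth. Over all 33 genes of the list, the median relative to the shGFP mean was -0.23, -0.25, -0.35 and -0.32 on shTardbp 1 to 4 and -0.36, -0.35 and -0.42 on shLuciferase 1, 2 and 4. On the shGFP arrays it was between -0.05 and 0.08.

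Atf3 departed from that pattern. It was at 8.83, 8.93, 8.70 and 8.67 in shGFP 1, 2, 3 and 5 and at 6.44, 6.57, 6.60 and 6.68 in shTardbp 1 to 4 (log2 change -2.21, SE 0.0875, adjusted p = 1.38e-09), and shLuciferase lay between the groups at 8.11, 7.96 and 7.78. Its change was -1.38 against shLuciferase (adjusted p = 3.79e-07), so it was lower in shTardbp than in either control, by a different amount. Myd116, the eIF2 phosphatase subunit now named Ppp1r15a, behaved likewise (-1.13 and -0.57). Another 6 genes did not pass against shGFP and were higher than in shLuciferase, among them, named after their values were seen, the cystine transporter Slc7a11 (-0.17 and 0.70), Ddit4 (-0.09 and 0.78), Atf5 (0.08 and 0.56) and Pycr1 (0.05 and 0.52). When the array letter was the block, 6 genes of the list fell and 4 were particular, and Sesn2 no longer passed.

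**Figure D4:**
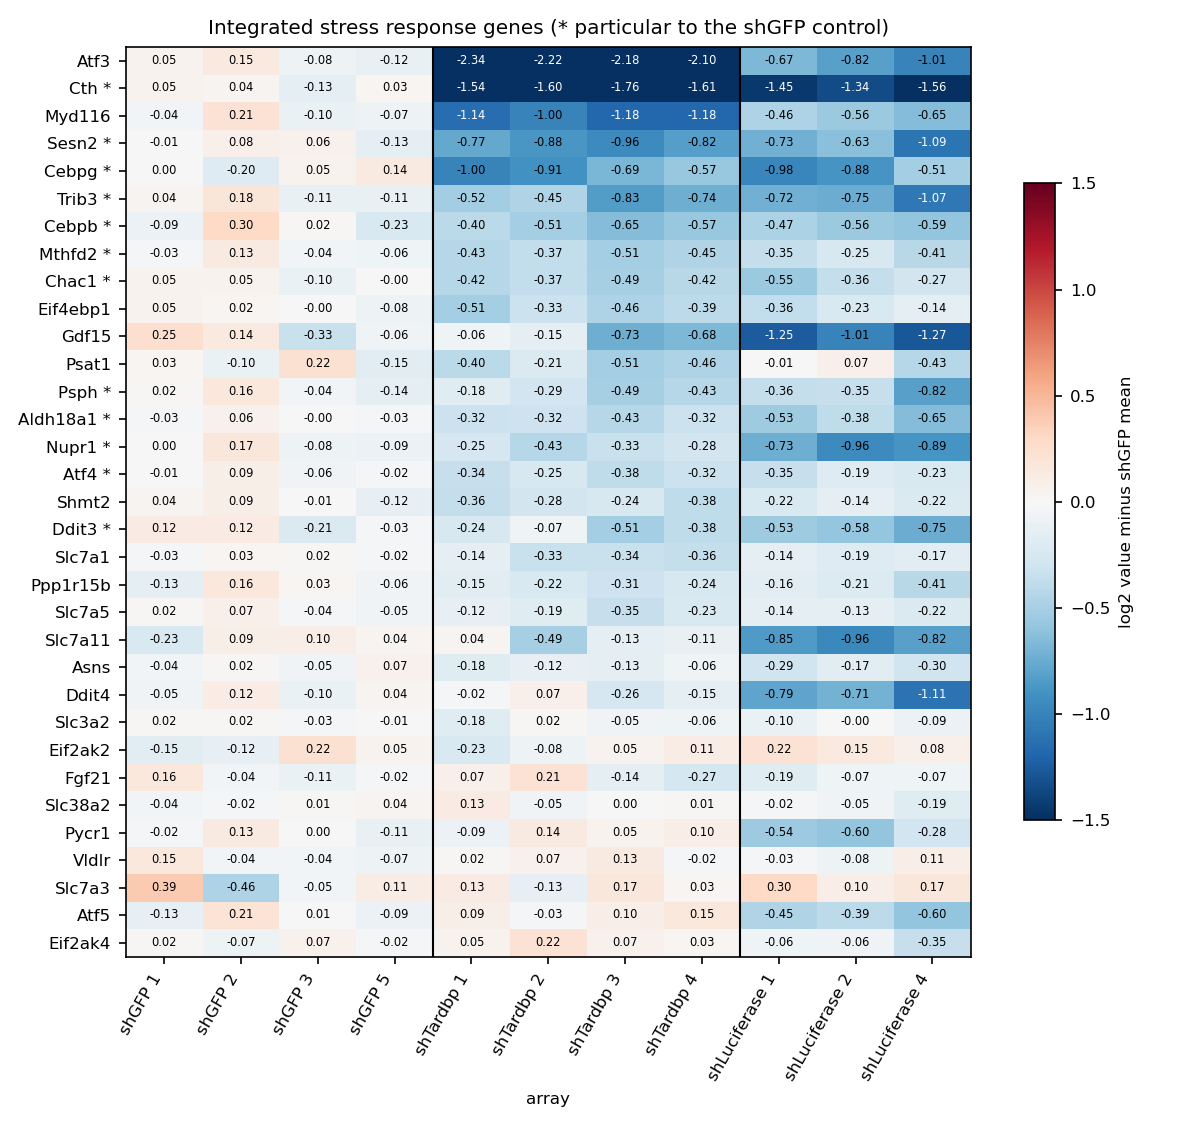
Each cell is the log2 gene value of an array minus the shGFP mean of that gene, for the 33 genes of the integrated stress response list in order of their change against shGFP, with shades limited to 1.5 in either direction and the value printed. Genes with an asterisk are particular to the shGFP control, a class defined by values of these same arrays, so their blue shTardbp columns follow from the choice.

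The promoters of this list were searched whether or not the gene fell, so the share over the list does not depend on the array changes. The motif was the core of the C/EBP-ATF response element, to which ATF4 dimers bind, taken as TGATGNAA on either strand. It was in 9 of 28 genes of the list with windows (32.1%), in 5 of 10 aminoacyl-tRNA synthetase genes and in 3.54% of all measured genes. Of the 12 particular genes 11 had a window and 3 held the core (27.3%). These 3 windows are shown with it in capitals.
Chac1, chr2:119350992-119351291, plus strand: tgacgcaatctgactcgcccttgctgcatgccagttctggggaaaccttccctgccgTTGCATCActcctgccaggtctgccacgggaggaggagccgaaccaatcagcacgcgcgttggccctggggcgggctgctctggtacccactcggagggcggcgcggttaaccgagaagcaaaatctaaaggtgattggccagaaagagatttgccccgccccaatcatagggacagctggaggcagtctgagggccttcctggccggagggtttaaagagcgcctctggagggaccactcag
Trib3, chr2:152344011-152344310, minus strand: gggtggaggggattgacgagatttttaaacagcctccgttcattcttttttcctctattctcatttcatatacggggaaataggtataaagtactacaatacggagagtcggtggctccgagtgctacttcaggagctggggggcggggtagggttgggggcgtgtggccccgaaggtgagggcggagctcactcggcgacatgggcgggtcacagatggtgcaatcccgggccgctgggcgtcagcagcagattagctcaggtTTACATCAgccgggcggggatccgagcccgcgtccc
Nupr1, chr7:126625421-126625720, minus strand: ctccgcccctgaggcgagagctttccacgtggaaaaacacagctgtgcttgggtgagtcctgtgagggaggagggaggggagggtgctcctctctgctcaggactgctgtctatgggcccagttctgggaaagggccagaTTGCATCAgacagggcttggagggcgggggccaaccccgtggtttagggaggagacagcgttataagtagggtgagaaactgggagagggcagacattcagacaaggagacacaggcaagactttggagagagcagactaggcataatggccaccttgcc
Each holds the core once, in each case on the strand opposite to the transcript. Sesn2 and Cebpg, also of the particular class, had no match in the window. Whether the element has a part in any of these changes was not tested.

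Aminoacyl-tRNA synthetases load amino acids onto tRNAs and are partly under ATF4. Of 17, 7 fell against shGFP (41.2%, beside 15.5% of all genes) and none rose (beside 12.4%), with a median of -0.21. Against shLuciferase 2 fell and 2 rose (11.8% each, beside 14.3% lower and 11.8% higher of all genes), with a median of 0.05. Between the controls 8 were higher in shGFP (47.1%, beside 6.26% of all genes). Relative to the shGFP mean, the list median was -0.20, -0.16, -0.25 and -0.21 on shTardbp 1 to 4, -0.16 and -0.17 on shLuciferase 1 and 2, and lower, at -0.32, on shLuciferase 4. Cars was at 10.37, 10.40, 10.28 and 10.39 in shGFP 1, 2, 3 and 5 and at 9.996, 9.92, 9.96 and 10.02 in shTardbp 1 to 4 (log2 change -0.39, SE 0.0588, adjusted p = 0.000213), with shLuciferase at 9.91, 9.97 and 9.87. Aars (-0.33 and -0.05 against the 2 controls), Iars (-0.24 and 0.03) and Yars (-0.24 and 0.12) were particular as well, as was Tars (-0.22 and -0.02), named after its values were seen. The Yars call was lost without any 1 of the shGFP arrays, shLuciferase 1 or shTardbp 1, 3 or 4, and with the replicate block, which also ended the Iars call. Rars and Kars fell against both controls (-0.56 and -0.29, -0.49 and -0.38). Under the letter block 1 gene fell and 1 rose, and the Yars change turned to 0.03. With arrays weighted by their quality 11 fell.

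In the unfolded protein response of the endoplasmic reticulum, 7 of 32 genes fell (21.9%, beside 15.5% of all genes) and 3 rose (9.38%, beside 12.4%) against shGFP, and 3 fell and 7 rose against shLuciferase. Xbp1, its main transcription factor, was at 11.07, 11.23, 11.21 and 11.08 in shGFP 1, 2, 3 and 5 and at 10.57, 10.58, 10.59 and 10.65 in shTardbp 1 to 4 (log2 change -0.55, SE 0.0626, adjusted p = 2.06e-05), with shLuciferase between the groups at 10.82 to 10.92. Herpud1, an adaptor for protein disposal, was particular (-0.54 and 0.05), as were Sdf2l1 (-0.46 and -0.17) and Ero1l. Ero1l, the oxidase that feeds disulfide formation, was at 10.52, 10.61, 10.63 and 10.77 in shGFP 1, 2, 3 and 5 and at 9.77, 10.53, 10.01 and 10.07 in shTardbp 1 to 4 and at 9.69, 9.47 and 9.59 in shLuciferase, so that it fell against shGFP (-0.54), with overlapping values, and rose against shLuciferase (0.51). Mbtps2 (0.51), the ubiquitin ligase Syvn1 (0.41) and the chaperone Calr (0.34) rose against both. The main chaperone gene Hspa5, named after its value was seen, did not pass against shGFP (0.03, adjusted p = 0.868). The count of falls was 4 without shTardbp 4, 4 with arrays centred on their medians, 11 with array weights and 2 with the letter as a block.

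Hypoxia and glycolysis genes fell against shGFP in 12 of 29 cases (41.4%, beside 15.5% of all genes) and rose in 2 (6.9%, beside 12.4%), with a median of -0.22. Against shLuciferase 5 fell (17.2%, beside 14.3%) and 3 rose (10.3%, beside 11.8%), with a median of 0.11. Between the controls 9 were higher in shGFP (31.0%, beside 6.26% of all genes). Of the 12 falls 5 were also falls against shLuciferase, 6 were particular to shGFP (20.7% of the list, beside 4.16% of all genes) and 1 was undetermined. Egln3, an oxygen-sensing prolyl hydroxylase that HIF itself induces, was at 10.59, 10.97, 10.85 and 10.89 in shGFP 1, 2, 3 and 5 and at 8.47, 9.76, 8.60 and 8.59 in shTardbp 1 to 4 (log2 change -1.97, SE 0.218, adjusted p = 1.66e-05) and at 10.01, 10.06 and 10.23 in shLuciferase, a fall against both. The glucose transporter Slc2a1 was at 10.62, 10.90, 10.76 and 10.85 in shGFP 1, 2, 3 and 5 and at 9.64, 10.44, 9.39 and 9.51 in shTardbp 1 to 4 (log2 change -1.03, SE 0.174, adjusted p = 0.000479), and it also fell against shLuciferase (-0.73), as did the lactate transporter Slc16a3 (-0.94 and -0.66) and the collagen hydroxylase P4ha2 (-0.73 and -0.68). The glycolytic regulator Pfkfb3 fell by -0.37 and -0.77 against the 2 controls. The 6 particular genes included Slc2a3 (-0.75 and 0.32), Bnip3 (-0.87 and 0.21) and Pdk1 (-0.95 and 0.43).

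The array shTardbp 2 stood apart from the other 3 in this list. Pdk1, a kinase that diverts pyruvate from mitochondria, was at 7.15, 7.77, 7.47 and 7.90 in shGFP 1, 2, 3 and 5 and at 6.11, 7.91, 6.32 and 6.13 in shTardbp 1 to 4, so shTardbp 2 reached the top of the shGFP range and the others lay below it. Bnip3, a mitophagy receptor, was at 9.96, 10.29, 10.21 and 10.43 in shGFP 1, 2, 3 and 5 and at 8.77, 10.32, 9.20 and 9.13 in shTardbp 1 to 4, with the same array near the shGFP values. The median of the list relative to the shGFP mean was 0.03 on shTardbp 2 beside -0.39, -0.37 and -0.30 on shTardbp 1, 3 and 4. On shLuciferase 4 it was -0.43, lower than the -0.25 and -0.24 on shLuciferase 1 and 2. Without shTardbp 2 the count of falls was 16. It was 7 without shGFP 2, shGFP 5, shTardbp 3 or shTardbp 4, and 1 with the array letter as a block. Pdk1 and Bnip3 each lost their call without any 1 of these 4 arrays, shGFP 3 or shTardbp 1, and Pdk1 also with the replicate block. The rises in the list were 1, not 2, without any 1 array other than shTardbp 3 and shLuciferase 4.

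Of 39 oxidative stress genes 8 rose (20.5%, beside 12.4% of all genes) and 6 fell (15.4%, beside 15.5%) against shGFP, with 4 rises and 9 falls against shLuciferase. Besides Gpx8 and Txnip, the reticulum peroxidase Gpx7 was at 5.57, 6.16, 5.93 and 5.78 in shGFP 1, 2, 3 and 5 and at 4.98, 5.11, 5.04 and 4.94 in shTardbp 1 to 4 (log2 change -0.84, SE 0.117, adjusted p = 0.000106) and fell further against shLuciferase (-1.20). Prdx2, a peroxiredoxin, rose against shGFP (0.46, adjusted p = 0.000529). The NRF2 targets Nqo1, described above, and Srxn1, at 7.53, 7.62, 7.55 and 7.38 in shGFP 1, 2, 3 and 5 and at 7.92, 8.13, 7.78 and 7.95 in shTardbp 1 to 4 (log2 change 0.42, SE 0.0805, adjusted p = 0.00119), were particular rises, with Srxn1 at 7.78, 7.89 and 7.79 in shLuciferase. Hmox1 and Txnrd1, further NRF2 targets named after their values were seen, did not pass (0.06 and -0.01).

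Of 20 heat shock genes 3 rose (15%, beside 12.4% of all genes) and 1 fell (5%, beside 15.5%). Bag3, a co-chaperone of selective autophagy, was at 10.03, 10.12, 10.12 and 10.11 in shGFP 1, 2, 3 and 5 and at 10.60, 10.69, 10.59 and 10.42 in shTardbp 1 to 4 (log2 change 0.48, SE 0.0666, adjusted p = 0.000105), and shLuciferase at 10.60, 10.58 and 10.60 made it particular to shGFP. Dnajb4 was at 9.06, 9.04, 9.31 and 9.46 in shGFP 1, 2, 3 and 5 and at 9.96, 9.79, 10.25 and 10.27 in shTardbp 1 to 4 (log2 change 0.85, SE 0.137, adjusted p = 0.000339) and rose against shLuciferase as well (0.59). In both genes all shTardbp values were above all shGFP values. Hspa1a, the inducible heat shock protein, changed by 0.28 (adjusted p = 0.0357), a call lost without shGFP 1, 2 or 3 or any 1 shTardbp array. Under the letter block its change was -0.09. Hsf1, the factor of the response, changed by -0.21 (adjusted p = 0.039), and lost its call without shGFP 1, 2 or 3, shLuciferase 1 or 2, or shTardbp 1 or 4. Hspb8 was at 10.48, 10.87, 10.76 and 10.58 in shGFP 1, 2, 3 and 5 and at 11.06, 10.94, 10.83 and 10.90 in shTardbp 1 to 4 and did not pass (0.26, adjusted p = 0.09).

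Targets of p53 fell in 6 of 28 cases (21.4%, beside 15.5% of all genes) and rose in 3 (10.7%, beside 12.4%) against shGFP, and fell in 4 and rose in 6 against shLuciferase. Besides Gadd45a and Sesn2, which were particular, Ddb2, a damage sensor of nucleotide excision repair, was at 5.19, 4.98, 5.11 and 5.05 in shGFP 1, 2, 3 and 5 and at 5.49, 5.69, 5.51 and 5.66 in shTardbp 1 to 4 (log2 change 0.50, SE 0.0731, adjusted p = 0.00015) and rose against both controls. Btg2, an antiproliferative gene, was at 7.54, 7.60, 7.54 and 7.69 in shGFP 1, 2, 3 and 5 and at 8.33, 8.64, 7.92 and 7.81 in shTardbp 1 to 4 (log2 change 0.58, SE 0.141, adjusted p = 0.00621), higher on shTardbp 1 and 2 than on the other 2. Lrdd, also known as Pidd1, fell (-0.34). The falls numbered 3 without shGFP 3 and 2 with the letter as a block, and the rises 5 without shGFP 2.

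Of 34 immediate early genes 8 fell (23.5%, beside 15.5% of all genes) and 3 rose (8.82%, beside 12.4%) against shGFP, and 12 fell and 4 rose against shLuciferase. Myc was at 11.997, 11.92, 11.91 and 11.93 in shGFP 1, 2, 3 and 5 and at 11.10, 11.27, 11.15 and 11.06 in shTardbp 1 to 4 (log2 change -0.80, SE 0.0654, adjusted p = 1.15e-06), with shLuciferase between the groups at 11.45 to 11.59. The orphan nuclear receptor Nr4a1 was at 8.75, 8.77, 8.72 and 8.68 in shGFP 1, 2, 3 and 5 and at 7.74, 8.15, 7.84 and 7.91 in shTardbp 1 to 4 (log2 change -0.82, SE 0.0841, adjusted p = 8.75e-06), and Nr4a3 fell much less against shGFP (-0.63) than against shLuciferase (-1.98). In Myc and Nr4a1 all shTardbp values lay below all control values. Fosl2, an AP-1 subunit, fell to a like extent against both (-0.36 and -0.44). Zfp36, which destabilises cytokine transcripts, was a particular rise of 0.28 with overlapping groups, a call lost without shGFP 2, 3 or 5, without shTardbp 3 or 4, and with the replicate block. The count of rises fell to 1 without shGFP 3, shGFP 5 or shTardbp 4.

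Interferon and antigen presentation genes rose in 10 of 43 cases (23.3%, beside 12.4% of all genes) and fell in 2, and rose in 13 and fell in 2 against shLuciferase. None was particular to shGFP. Tapbp, which loads peptides onto class I molecules, was at 8.80, 9.002, 8.94 and 9.002 in shGFP 1, 2, 3 and 5 and at 9.99, 9.81, 9.79 and 9.86 in shTardbp 1 to 4 (log2 change 0.93, SE 0.0758, adjusted p = 1.1e-06), with shLuciferase at 9.10 to 9.32. Irf9, the DNA-binding subunit of the type I interferon factor, was at 6.57, 6.88, 6.65 and 6.58 in shGFP 1, 2, 3 and 5 and at 7.28, 7.35, 7.37 and 7.501 in shTardbp 1 to 4 (log2 change 0.70, SE 0.0809, adjusted p = 2.24e-05). Ddx58, the RNA sensor RIG-I, was at 6.05, 6.33, 6.43 and 6.36 in shGFP 1, 2, 3 and 5 and at 6.93, 7.01, 7.23 and 7.26 in shTardbp 1 to 4 (log2 change 0.81, SE 0.0942, adjusted p = 2.42e-05), and its rise was smaller against shLuciferase (0.35). The shTardbp values of all 3 genes lay above every control value. Classic interferon-induced genes such as Ifit1 (-0.15) and Rsad2 (0.03), named after their values were seen, did not pass, but 13 of the 43 genes, Ifit1 among them, were low in both groups, which limits what could pass. The falls numbered 1 without shGFP 1, shGFP 3 or shTardbp 1, 2 or 4, and 0 without shTardbp 3.

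Of 13 genes for proteins of stress granules, the cytoplasmic bodies in which TDP-43 can gather, 2 fell and 2 rose against either control. Each count is 15.4% of the list, beside 15.5% lower and 12.4% higher of all genes against shGFP. The core protein G3bp1 was at 8.43, 8.49, 8.32 and 8.41 in shGFP 1, 2, 3 and 5 and at 7.92, 8.13, 7.81 and 8.07 in shTardbp 1 to 4 (log2 change -0.43, SE 0.0803, adjusted p = 0.00101) and fell against shLuciferase too (-0.39), while its relative G3bp2 rose against shGFP (0.28) and did not pass against shLuciferase (adjusted p = 0.986). Usp10 fell (-0.30) and Ubap2l rose (0.19), both undetermined, and Tia1 did not pass (0.28, adjusted p = 0.051). The rises numbered 0 without shTardbp 4 or with the replicate block, and 1 without shGFP 1, 2 or 3 or shTardbp 3.

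Of 18 apoptosis regulators 4 rose (22.2%, beside 12.4% of all genes) and 2 fell (11.1%, beside 15.5%). Casp8, the initiator caspase of death receptors, was at 8.58, 8.72, 9.01 and 8.45 in shGFP 1, 2, 3 and 5 and at 7.01, 7.69, 7.56 and 7.63 in shTardbp 1 to 4 (log2 change -1.22, SE 0.144, adjusted p = 2.91e-05), with shLuciferase at 7.66, 7.51 and 7.70, overlapping the shTardbp values, so its fall was particular. The death activators Bmf (0.59) and Bcl2l11, which encodes BIM (0.55), rose, with a larger rise of Bcl2l11 against shLuciferase (1.28). Bak1 fell (-0.38) and Diablo rose (0.29). The rises were 2 with the replicate block, and 1 with the letter block or with the median of the probe sets as the gene value.

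**Figure D5:**
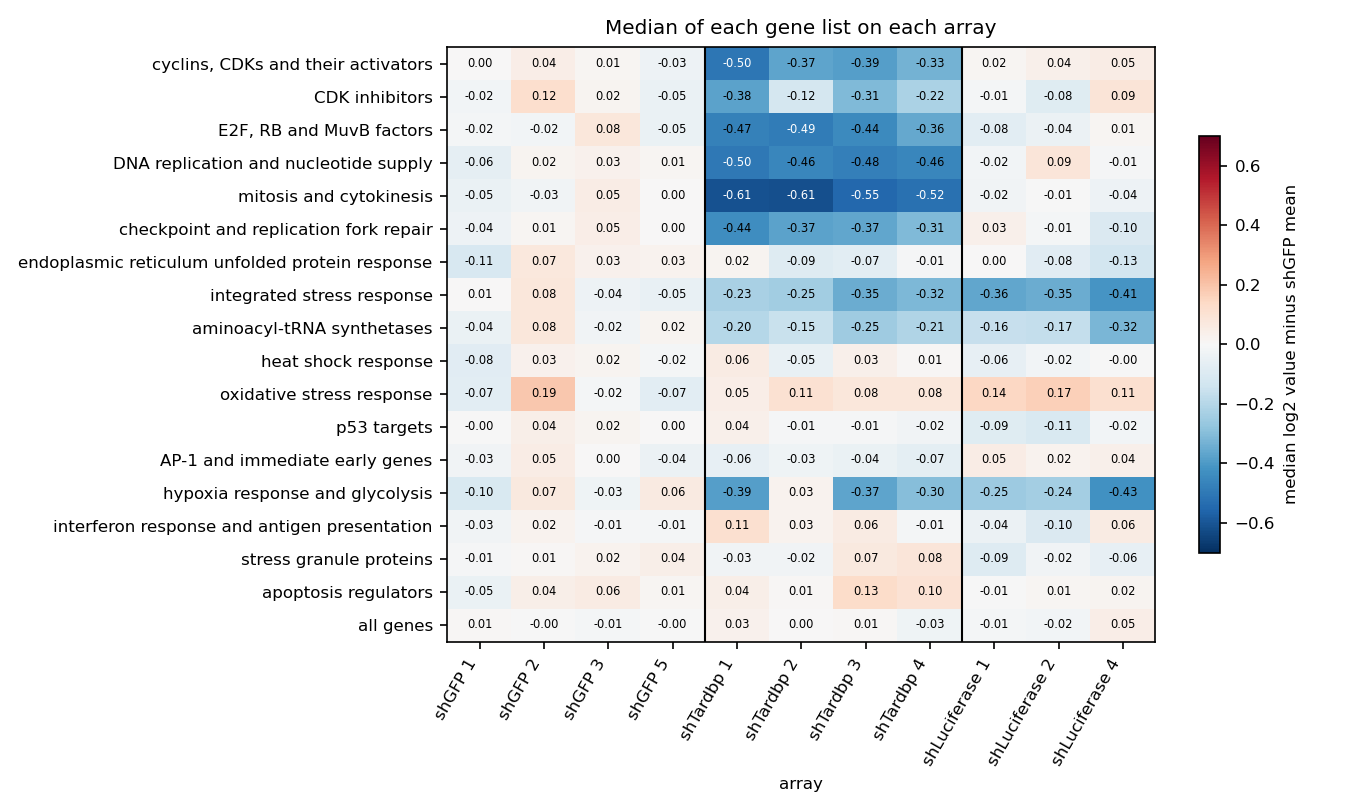
Each cell is the median over the genes of a list of the log2 value on that array minus the shGFP mean of the gene, with the arrays in columns and the value printed. Cell cycle rows are clearly blue only in the shTardbp columns, the integrated stress response and aminoacyl-tRNA synthetase rows are blue in both the shTardbp and the shLuciferase columns, and the hypoxia row is not blue on shTardbp 2.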

How the data were processed

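RNA of 11 NSC34 samples was measured on Affymetrix whole-transcript arrays after amplification and biotin labelling, per the labels' protocols. The authors deposited log2 values per probe set, made with RMA and Partek per the submitters' processing notes. For versions, settings and build, "not given in the sources used here" applies. Of 194293 probe sets, 179496 had 1 gene symbol in the platform annotation, 1328 several and 13469 none. Their mean per gene gave 15803 genes (median 9 probe sets), with 2039 symbols updated through RefSeq synonyms for matching. Genes sharing sequence with a close copy may share signal.

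A model with 3 groups was fitted to all 11 arrays with limma 3.58.1 in R 4.3.3 (lmFit, eBayes; 8 residual degrees of freedom), with no filter, and p-values were adjusted over all genes. SE is the model's standard error. The tests were checked on simulated data. Replicate numbers 1, 2 and 3 occur in both groups, and same-numbered arrays deviated together (correlations 0.116 to 0.201, beside -0.235 to 0.287 for the 13 other pairs). By the rule that every pair exceed 0.1 they count as paired, and a fit with the number as a block, in which shGFP 5 carries no information, is reported where it changes a result.

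Named genes were Tardbp, the 12 largest falls and rises with non-overlapping groups (unnamed clones, predicted genes and Riken cDNAs left out, here and in the next class), the 8 largest falls and rises particular to shGFP, and list members with the smallest adjusted p (5 per cell cycle or stress list, 3 per other list) or, up to 3, particular with the largest change. Members and lists were chosen with earlier results of these data known. Of 775 genes in 27 lists 684 were measured, and lists share genes. Precision is limited by the number of arrays. The alternatives were the letter or number as a block, array weights, re-normalization, centring, the median of probe sets, a level filter, subtraction of a neighbourhood shift, the 8 arrays alone, and leaving out each array.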

Additional observations from a re-analysis of the deposited data

Results flagged for a closer look

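Of 308 groups of 4 arrays tested (154 named genes, both groups), 15 held an array whose gap to the nearest of the others exceeded 0.829 of the group's range. Chance flags about 1 in 20 such groups, so 15 is about what chance gives. The largest gaps by size lay on shTardbp 2. Pdk1 was at 7.91 there and at 6.11 to 6.32 on the other shTardbp arrays, Egln3 at 9.76 beside 8.47 to 8.60, and Ache, the acetylcholinesterase gene, at 9.33 beside 8.49 to 8.55. Lgi1 was also highest on shTardbp 2, at 9.74 beside 9.50 to 9.53.

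On shTardbp 1, Apol9b was at 7.65 (others 7.96 to 7.99), Mupcdh at 6.19 (6.44 to 6.48), Ccna2 at 11.23 (11.35 to 11.36) and Clspn at 6.29 (6.28 on each of the others to 2 decimals). Tarbp2 was at 8.54 on shTardbp 3 (8.74 to 8.77) and Mfng at 4.67 on shTardbp 4 (4.89 to 4.94). Among the shGFP arrays, Bag3 was at 10.03 on shGFP 1 (10.11 to 10.12), Aldh1l1 at 4.54 on shGFP 1 (4.43 to 4.44), Cth at 9.92 on shGFP 3 (10.09 to 10.11), Rb1 at 8.74 on shGFP 3 (8.64 to 8.65) and Hspa1a at 5.48 on shGFP 5 (5.19 to 5.24).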

How the results depend on the processing

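With the array letter as a block, 1933 genes passed (1603 of them in the main result too, all in the same direction), 361 were particular (237 in both), cell cycle genes fell in 70 cases and rose in 0, stress genes fell in 23 and rose in 22, and Tardbp changed by -0.26. That block reversed 3 named genes, Yars (0.029), Hspa1a (-0.093) and the astrocyte gene Aldh1l1 (-0.118), and 58 of 154 named genes lost their call. The letter is estimated from the 3 shLuciferase arrays alone, and the SE of Tardbp was 0.158 in that fit beside 0.0812. The particular genes numbered 382 with the median of the probe sets (320 in both) and 414 with the replicate block (376 in both), which changed no other main count or the Tardbp call. Cell cycle rises were 3 with array weights. Array weights, centring, repeated quantile normalization, the level filter, the neighbourhood shift and the 8 arrays alone otherwise kept the main counts within 1.5 times, and for the last no particular class can be formed.

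Leaving out each array in turn gave 3765 to 4710 genes, 499 to 657 particular genes, 124 to 136 cell cycle falls, 1 to 2 cell cycle rises (2 without shTardbp 1), 54 to 77 stress falls, 30 to 43 stress rises and a Tardbp change of -0.46 to -0.35. No setting that left out an array ended the Tardbp call, and between 0 and 12 named genes lost theirs. Dim genes and genes with few probe sets limit what could pass.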

Other observations

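Of 39 measured lysosome and autophagy genes 13 rose against shGFP (33.3%, beside 12.4% of all genes) and 6 fell (15.4%, beside 15.5%). Against shLuciferase 17 rose (43.6%, beside 11.8% of all genes) and none fell (beside 14.3%). Grn, the progranulin gene, was at 10.33, 10.69, 10.39 and 10.40 in shGFP 1, 2, 3 and 5 and at 11.30, 11.20, 11.14 and 11.10 in shTardbp 1 to 4 (log2 change 0.73, SE 0.0825, adjusted p = 1.95e-05), with shLuciferase at 10.47 to 10.61, and the proteases Ctsd and Ctsb rose as well (0.70 and 0.62, with 0.66 and 0.60 against shLuciferase). The 6 falls, named after their values were seen, were Atg3 (-0.48), Optn (-0.45), Wipi1 (-0.43), Atg16l1 (-0.33), Becn1 (-0.19) and the protease Ctsl (-0.49). None of them passed against shLuciferase. The falls numbered 1 under the letter block and 3 when probe sets were summarised by their median.

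Synaptic genes rose in 11 of 28 cases against shGFP (39.3%, beside 12.4% of all genes) and fell in 1 (3.57%, beside 15.5%). Sv2a, a synaptic vesicle protein, was at 7.83, 7.89, 7.997 and 7.82 in shGFP 1, 2, 3 and 5 and at 9.23, 9.003, 8.92 and 8.99 in shTardbp 1 to 4 (log2 change 1.15, SE 0.0746, adjusted p = 1.35e-07), and the vesicle fusion gene Napb was at 7.61, 7.43, 7.72 and 7.46 in shGFP 1, 2, 3 and 5 and at 8.19, 8.48, 8.62 and 8.68 in shTardbp 1 to 4 (log2 change 0.94, SE 0.109, adjusted p = 2.49e-05). The 8 arrays did not overlap between groups in either gene. Unc13b, a priming factor, was lower (-0.73), with a low shTardbp mean. Among motor neuron markers, the vesicular acetylcholine transporter gene Slc18a3 was at 9.18, 9.20, 9.24 and 9.04 in shGFP 1, 2, 3 and 5 and at 9.92, 10.39, 9.98 and 9.82 in shTardbp 1 to 4 (log2 change 0.86, SE 0.103, adjusted p = 3.22e-05) and Ache at 7.54, 7.79, 7.63 and 7.78 in shGFP 1, 2, 3 and 5 and at 8.499, 9.33, 8.55 and 8.49 in shTardbp 1 to 4 (log2 change 1.03, SE 0.175, adjusted p = 0.000505). Isl1, a motor neuron homeobox gene, fell against shGFP (-0.51) and rose against shLuciferase (0.60), so its direction depended on the control. Of 20 pan-neuronal markers 8 rose (40.0%, beside 12.4% of all genes) and 3 fell (15%, beside 15.5%) against shGFP, and the rises were 5 without shGFP 1. Mapt was higher (0.75), Ncam1 higher (0.45) and Elavl4 lower (-0.52), each also past the test in that direction against shLuciferase. Against shLuciferase 5 of the 20 rose and 1 fell. Of the 20 markers, 4 were particular to shGFP, 2 lower and 2 higher, so part of this list depended on the control. Of the 13 motor neuron markers 4 rose (30.8%, beside 12.4% of all genes) and 1 fell (7.69%, beside 15.5%) against shGFP. The motor neuron rises were 2 without shGFP 5 or shTardbp 4.

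The core spliceosome list gave 12 falls (27.9%, beside 15.5% of all genes) and 2 rises (4.65%, beside 12.4%) among 43 genes. Prpf31 (-0.62), Lsm3 (-0.69) and Slu7 (-0.58) had the smallest adjusted p values, and the falls were 6 with probe set medians. Cholesterol synthesis genes fell against shGFP in 8 of 19 cases (42.1%, beside 15.5% of all genes), with Mvk at -0.79 and Lss at -0.43. There was 1 rise, Tm7sf2 (0.46; 5.26%, beside 12.4%). Against shLuciferase only 3 of the 19 fell (15.8%, beside 14.3% of all genes) and 1 rose. Of the 8 falls, 2 were shared, 1 was particular and 5 were undetermined. The falls against shGFP were 5 without shGFP 2 or shGFP 3. Of 10 genes that process hairpins, Dicer1 was higher than in shGFP (0.37) and not past the test against shLuciferase (0.11), while Tarbp2 (-0.38) and Eif2c4, now Ago4 (-0.24), were lower. Of the marker genes of other cell types, Dcn, described above (-2.18), Pdgfra (-0.69), Fn1 (-0.59), Vim (-0.21) and Krt18 (-0.30) were lower in shTardbp than in shGFP. Fn1 rose against shLuciferase, by 0.37. Higher than in shGFP were Mbp (0.23), Kdr (0.36) and Pecam1 (0.33). The fibroblast list had 3 falls, which were Dcn, Fn1 and Vim, and 1 rise, which is not named here.

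Neighbouring genes shifted together in places. In the RefSeq gene order, 16 stretches of at least 20 genes had a running median over 50 genes beyond 0.15 on the log2 scale, 9 lower and 7 higher in shTardbp than in shGFP, and they held 843 genes, among them 8 cell cycle and 16 stress genes. The stretches were picked by this same difference, so an excess of falls or of rises within them follows from the choice. Over all genes 15.5% fell and 12.4% rose. On chromosome 16, 33 of 61 genes fell and none rose in the stretch that ends at Stxbp5l (median -0.33), where the controls differed by a median of 0.10. On chromosome 19, 64 of 131 genes rose and 5 fell between Ighmbp2 and Esrra (median 0.23). With the running shift subtracted from each gene, 3988 genes passed, 137 cell cycle genes fell and 553 genes were particular.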
